A study of Mus musculus with 2 samples.

Results

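Peaks named for microRNA and other small RNA genes made up 78 of the 16331 peaks that the authors deposited from an RNA immunoprecipitation of BUD31, and they named 32 of 3258 genes. The members were all peaks whose gene the authors typed as miRNA (74 peaks, 29 genes), RNase_MRP_RNA (2 peaks, Rmrp), snRNA (1 peak, Rnu3a) or snoRNA (1 peak, Snord47). RNA immunoprecipitation sequencing (RIP-seq) recovers RNA bound to a protein with an antibody and sequences it beside the starting RNA. BUD31 is a protein of the spliceosome. The assay consisted of 1 library from RNA pulled down by an antibody to BUD31 and 1 library from input RNA, 10% of the total. Both came from germ cells of C57BL/6J testes at postnatal day 14, released by enzymatic digestion. The labels give no genotype, sort or pooling of animals.

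A microRNA (miRNA) starts as a hairpin within a longer transcript. Drosha cuts the hairpin out in the nucleus, Dicer trims it in the cytoplasm, and the mature strand guides an Argonaute protein to its targets through the seed, bases 2 to 8. Small nuclear RNAs (snRNAs) are the RNA cores of the spliceosome. Small nucleolar RNAs (snoRNAs) guide the chemical modification of ribosomal RNA and are mostly released from introns of host genes. In the mouse, a group of X-linked miRNA genes between Slitrk2 and Fmr1 is known for expression in the testis.

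The miRNA genes of that X-linked group gave most of the members: 56 of the 78 peaks (71.8%) and 17 of the 32 genes lay on the X chromosome. Of all 16331 peaks in the list, 3404 lay there. Mir509 alone gave 34 of the 56, none of them over its hairpin. The mature sequences below come from RefSeq (GRCm38.p6), which held 28 of the 29 miRNA genes. They are written 5′ to 3′ in lower case with the seed in capitals. The first set is the Mir465 family, shown because its hairpins are near copies of each other and its members differ in whether a peak lay over them. The 5′ arms share 1 seed. The 3′ arms of miR-465a, miR-465b and miR-465c are 1 sequence, which the table lists from 4 hairpins, whereas that of miR-465d has another seed. Mir465c-2 has no 3′ arm listed, but its hairpin is identical to that of Mir465c-1 and so holds the same sequence. A read from that 3′ arm cannot be assigned to any 1 of these hairpins.
mmu-miR-465d-5p: uAUUUAGAaugguacugauguga
mmu-miR-465a-5p: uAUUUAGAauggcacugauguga
mmu-miR-465b-5p: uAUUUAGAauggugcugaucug
mmu-miR-465c-5p: uAUUUAGAauggcgcugaucug
mmu-miR-465d-3p: uGAUCAGGgccuuucugaguaa
mmu-miR-465a-3p: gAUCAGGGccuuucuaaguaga

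The second set holds the other X-linked mature miRNAs that share a seed with a second one, and miR-742-3p, whose seed differs from that of the miR-743 pair. Of the 51 distinct seeds in 59 mature miRNAs of the members and the hairpins beside them, 5 occurred in more than 1 miRNA, and all 5 were X-linked. In 2 of the 3 pairs shown 1 hairpin lay under a peak and its partner did not: Mir883a did and Mir883b did not, and Mir871 did and Mir743 did not. In the third pair neither Mir743 nor Mir743b did.
mmu-miR-883a-3p: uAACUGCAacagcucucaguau
mmu-miR-883b-3p: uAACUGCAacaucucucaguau
mmu-miR-871-5p: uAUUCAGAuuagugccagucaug
mmu-miR-743a-5p: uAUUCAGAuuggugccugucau
mmu-miR-743a-3p: gAAAGACAccaagcugaguaga
mmu-miR-743b-3p: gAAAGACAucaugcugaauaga
mmu-miR-742-3p: gAAAGCCAccaugcuggguaaa

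The third set is Mir880, whose peak is the narrowest over an X-linked hairpin, and the 3 autosomal miRNA genes that lay under their own peak.
mmu-miR-880-5p: uACUCAGAuugauaugaguca
mmu-miR-880-3p: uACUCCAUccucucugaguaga
mmu-miR-6900-5p: uGCCAGGAgaagccuagagccguc
mmu-miR-7230-5p: aGACUGCUguuucucugaguggc
mmu-miR-6240: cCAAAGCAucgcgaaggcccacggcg

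The deposited list gives positions and annotation only. It holds no read count, fold, score or strand, so depth is unknown and no peak can be ranked. Each group was a single library, so the values carry no replicate error and no test was made. Positions are on mm10 and stand on a bin that is fixed per chromosome, 230 bp on the X chromosome and 200 to 210 bp on the other chromosomes with members. Intervals given below are Wilson 95% intervals over genes or peaks and cover counting error only. Neither genes nor peaks are replicates, and members of 1 cluster share their surroundings. Of marker genes on chromosomes with peaks, a set chosen after the data were seen, 4 of 6 germ cell genes had a peak (Sycp2, Sycp3, Kit and Mael, not Dazl or Dmc1), and 3 of 9 of somatic testis cells did (Wt1, Kitl and Myh11), beside 18.8% of all protein-coding genes. A peak list does not show how much of each cell type was present.

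Most of these peaks did not reach the RNA they were named for. A peak overlapped its own RNA gene, by at least 1 bp, in 11 of 32 genes (34.4%, 20.4% to 51.7%), and in 11 of the 78 peaks. Genes of other kinds named by a peak were reached by it in 93.2% of 3184 cases, and protein-coding genes in 95.9% of 2799. A small RNA gene of 53 to 275 bp is a smaller target than a coding gene, and length was not matched. The 10 miRNA genes reached were Mir742, Mir471, Mir463, Mir880, Mir881, Mir470 and Mir465d on the X chromosome, Mir6900 on chromosome 1, and Mir7230 and Mir6240 on chromosome 5. All 10 hairpins lay wholly inside their peak. The eleventh was Rmrp, of which 38.5% was covered. Another 2 hairpins, Mir883a and Mir871, lay under a peak named for a neighbour, which made 13 genes under any peak (40.6%, 25.5% to 57.7%).

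The other 67 peaks lay beside the RNA. Their median distance from it was 22073 bp, and 3956 bp over the 33 that do not name Mir509. By strand, 50 of the 78 peaks lay on the 5′ side of their RNA, 13 on its 3′ side and 11 over it, and for 4 the strand was not in the sequence table. Mir509 gave 34 of the 50, and without it 16 peaks lay on the 5′ side and 13 on the 3′ side. The shortest distances were 5 bp for Snord47, 42 bp for the second Rmrp peak, 114 bp for Mir465c-2 and 236 bp for Mir465c-1. Named RNAs were the nearest gene of the reference table, ties included, in 52 of the 78 peaks, and in 65 when pseudogenes were left out. In the rest another gene lay nearer. Some of the 52 also had another gene under the peak, such as Ndufa10 under that of Mir6900. The name thus states a place and not which transcript was recovered.

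**Figure D1:**
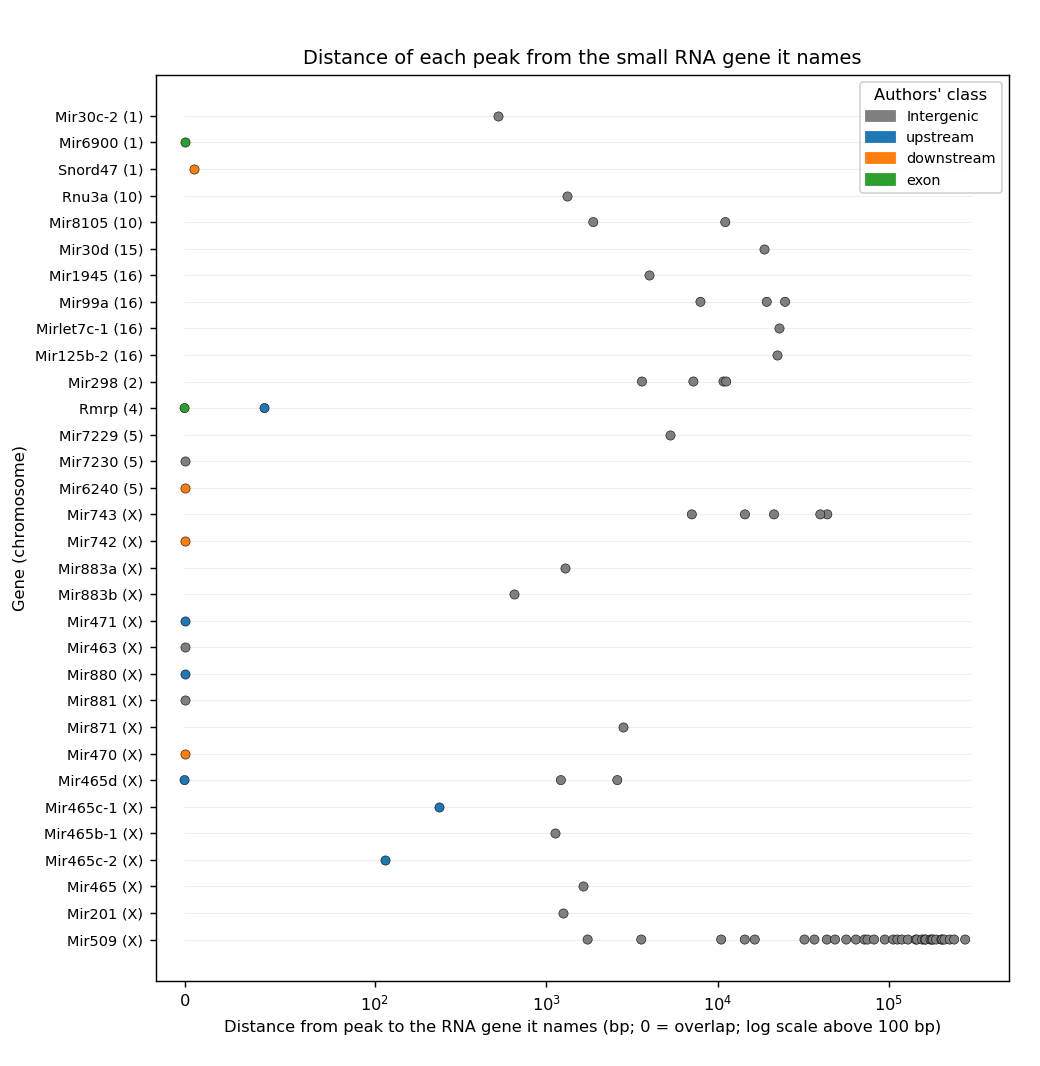
Distance in bp from each of the 78 peaks to the small RNA gene it names, 1 point per peak and 1 line per gene with its chromosome in brackets; colours give the authors' class and 0 is an overlap. Points at 0 belong to 11 genes, and the 34 peaks named for Mir509 reach to 278202 bp.

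A peak over its RNA was rare in the authors' intergenic class: 3 of 66 intergenic peaks overlapped the RNA (4.55%), against 6 of 10 upstream or downstream peaks (60%) and both exon peaks. Of the 78 peaks 66 were classed as intergenic, 6 as upstream, 4 as downstream and 2 as exon, and none as intron or UTR. Peaks outside genes were thus 97.4% of the small RNA peaks (91.1% to 99.3%) and 7.33% of the other 16253 (6.94% to 7.74%). Annotated small RNA genes have no introns or UTRs, whereas 13358 of the other peaks were classed as intron, so the annotation largely fixes this contrast. The class followed the middle of the peak in all 78. In the 2 exon peaks it lay in the RNA, in the 10 upstream or downstream peaks it lay 18.5 to 695.5 bp from the RNA, and in the 66 intergenic peaks it lay 1109.5 bp away or more. A peak that spans a hairpin is therefore named intergenic when it is wide and off centre. Mir463, Mir881 and Mir7230 each lay whole under such a peak.

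Peaks lay close together over the X-linked hairpin cluster. The cluster from Mir743 to Mir465 held 19 hairpins in the reference table, all on the minus strand, over 66776757 to 66839125. Of this stretch of 62369 bp, 15 peaks covered 59.0%. Peaks covered 6.89% of the X chromosome up to the end of its last gene. In the hairpin cluster 10 of 19 hairpins lay under a peak (52.6%), and 15 of 19 lay within 1000 bp of one. Over the whole X chromosome 22 of 92 hairpins lay under a peak (23.9%). The share in the cluster was not above the 59.0% of its length that peaks covered. Both ends of the stretch are genes that peaks name, so its density is partly set by the choice of members. From Mir743 to Mir470 the coverage was 69.6%, with 9 of 13 hairpins under a peak. In the Mir465 array it was 26.1%, with 1 of 6.

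**Figure D2:**
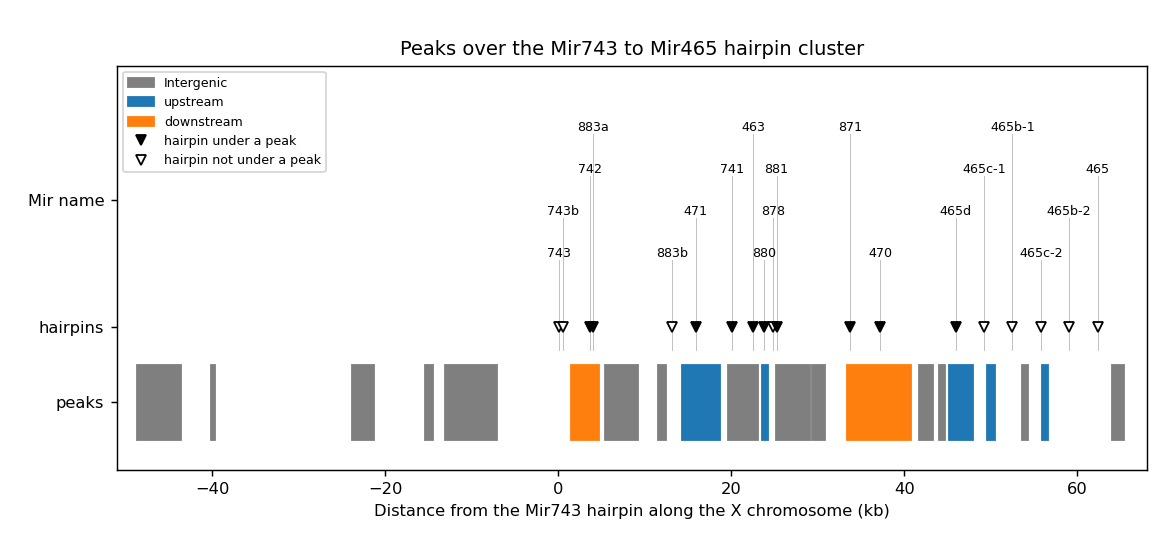
Peaks (rectangles to scale, coloured by the authors' class) and 19 miRNA hairpins (triangles, filled where a peak lies over them) along the X chromosome, in kb from the Mir743 hairpin. Filled triangles mark 10 hairpins, of which 9 lie between Mir743 and Mir470, and below Mir743 there are 5 peaks and no hairpin.

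Mir742 and Mir883a shared a peak of 3220 bp at 66778201 to 66781420, which names Mir742 and was classed as downstream. It also covers the pseudogene Gm14681. The peak that names Mir883a is the next one, 3910 bp at 66782111 to 66786020, and lies 1278 bp past that hairpin on its 5′ side. Mir883b was missed by 650 bp by its own peak of 920 bp. Mir743, the hairpin at the lowest position of the cluster, and its neighbour Mir743b lay 1383 and 869 bp from the nearest peak.

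Mir471, which in the mouse has been studied in Sertoli cells, lay inside a peak of 4370 bp at 66791081 to 66795450. Mir741 and Mir463 lay under the same peak of 3450 bp at 66796371 to 66799820, although only Mir463 is named. Mir880 lay in the middle of a peak of 690 bp, 3 bins wide, at 66800281 to 66800970. Here the peak's middle was 18.5 bp from the hairpin, the closest of the peaks outside genes. Mir878 was missed by 306 bp, and Mir881 lay at the edge of the following peak of 3910 bp. Mir871 and Mir470 shared the widest peak of the cluster, 7360 bp at 66810171 to 66817530.

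The Mir465 array is a tandem repeat: 6 hairpins follow each other at 3247 to 3315 bp from start to start. Only the Mir465d hairpin lay under a peak, of 2760 bp at 66821901 to 66824660, and 2 further peaks named Mir465d lay on its 3′ side. In the remaining repeats the peaks were narrower and lay beside the hairpins, at 236 bp from Mir465c-1, 1131 bp from Mir465b-1, 114 bp from Mir465c-2 and 1636 bp from Mir465, each on the 5′ side. Mir465b-2 had no peak of its own and lay 2364 bp from the nearest. Hairpins of Mir465c-1 and Mir465c-2 are identical, as are those of Mir465b-1 and Mir465b-2. Over the 15 pairs the identity ran from 65.4% to 100%, counted over the whole alignment. The low values belong to Mir465d, whose hairpin is annotated at 58 bp: 53 to 56 of these bases matched the longer hairpins. How the authors treated reads that align to several places is not given in the sources used here, so calls in this array are uncertain. The part of repeated sequence in the lower coverage was not tested.

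Below the first hairpin, 5 peaks named Mir743 lay at 66728061 to 66769690, 7067 to 43637 bp from it on its 3′ side. Their widths were 460 to 5980 bp. In the reference table another gene lay nearer to each of them, either the coding gene Gm52436 or the pseudogenes Gm23000 and Gm8310. Beyond Mir465 came 4 peaks that name the long noncoding RNA gene Gm30993. The list numbers its peaks along the chromosome, and 1 number is missing between the Mir465c-2 and Mir465 peaks, on either side of Mir465b-2. Such gaps are common: on the X chromosome 1693 numbers from 60172 to 65268 have no peak.

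Mir509 was named by more peaks than any other member, 34 of 78, and none reached its hairpin at 68010105 to 68010179. These peaks lay at 68011921 to 68289070, all on the 5′ side, at 1742 to 278202 bp. Only 2 lay within 10 kb of the hairpin and 9 within 50 kb, while 28 lay within 200 kb. They covered 32.6% of the 277150 bp between the first and the last. Their median width was 1495 bp (460 to 11270), and the widest were near the middle of the stretch: 11270 bp at 68139111 to 68150380 and 7590 bp at 68128991 to 68136580. No gene of the reference table lies between Mir509 and the pseudogene Gm4910, 305687 bp further, and Gm4910 was the nearer gene for 13 of the 34. All were classed as intergenic. Fmr1, the fragile X gene that borders the group, had its first peak beyond this stretch.

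**Figure D3:**
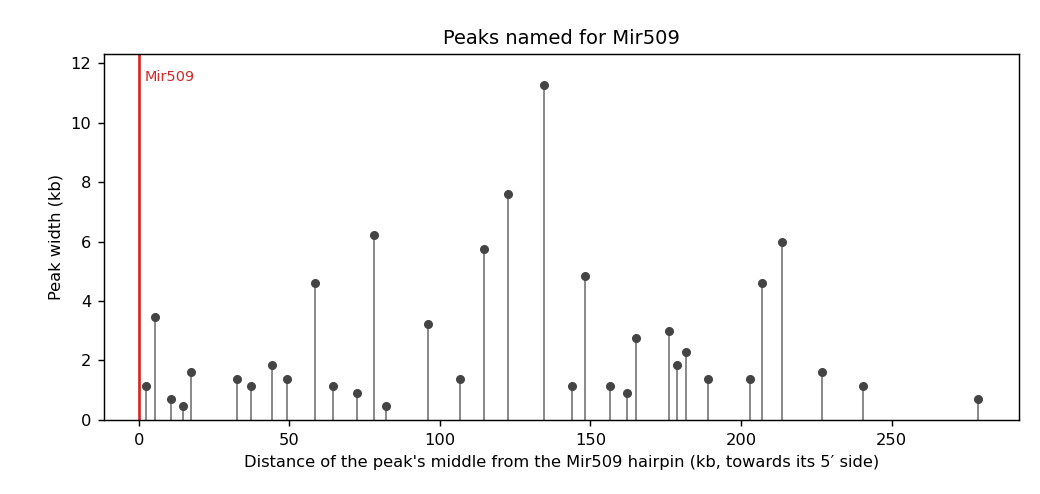
Width in kb of each of the 34 peaks named for Mir509 against the distance in kb of the peak's middle from the hairpin, on the hairpin's 5′ side; the red line marks the hairpin. No peak lies at 0, and the peak of 11270 bp stands near the middle of the stretch.

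Mir201 and Mir547, between the cluster and Mir509, were not under a peak. The 1 peak named Mir201, of 3450 bp at 67983401 to 67986850, lay 1246 bp from Mir201 on its 3′ side and 1524 bp from Mir547.

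Autosomal miRNA peaks were fewer than those on the X chromosome and mostly narrower. As on the X chromosome, most did not reach the hairpin. Mir6900 on chromosome 1, at 92464483 to 92464542, lies inside Ndufa10, a gene of respiratory complex I. Its peak of 3485 bp at 92462791 to 92466275 was classed as exon. The host Ndufa10 carried 6 further peaks, all intron, of 205 to 2050 bp, and peaks covered 25.7% of it. The list gives no strand, so hairpin and host cannot be separated.

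Mir7230 on chromosome 5 lay whole under a peak of 8400 bp at 113331601 to 113340000. The peak named for its neighbour Mir7229 was 600 bp wide and 5293 bp from that hairpin. Both stand in a row of peaks called intergenic, with 1 named for Sgsm1 below them, and 1 for 1700016C19Rik and 5 for Aym1 above. Mir6240, at 114851948 to 114852064, lay whole in a peak of 1600 bp, and 12 further peaks of 7 genes lay within 100 kb.

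Mir99a, Mirlet7c-1 and Mir125b-2 on chromosome 16 form a conserved cluster, and let-7 miRNAs are known for their rise as cells differentiate. Together they had 5 peaks, of 200 to 1200 bp, and none came nearer to a hairpin than 7936 bp. The 3 named Mir99a lay 5′ of it at 7936, 19336 and 24736 bp. The last 2, named Mirlet7c-1 and Mir125b-2, lay between those hairpins. The annotated host, Mir99ahg, had 1 intron peak of 1200 bp and ends 40508 bp short of Mir99a in the reference table, so the 5 peaks lie outside it by that table.

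Mir298 on chromosome 2 lies in the imprinted Gnas region. Its 4 peaks were 1 bin (200 bp) each and lay on its 5′ side at 3616 to 11216 bp. The next gene, the antisense RNA gene Gnasas1 (Nespas in the peak list), was nearer to 3 of the 4. It had 3 peaks of its own, and Gnas had 5.

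Of the miR-30 family, Mir30c-2 and Mir30d had 1 peak each, and their neighbours Mir30a and Mir30b had none. That of Mir30c-2 was 1230 bp wide and 522 bp from the hairpin on its 3′ side, with no other peak within 100 kb. That of Mir30d on chromosome 15 was 400 bp wide and 18712 bp away. Mir1945 on chromosome 16 had the widest autosomal member peak, 11000 bp, 3956 bp from its hairpin, which lies 43 bp from Gspt1, a gene with no peak. The 2 peaks of Mir8105, of 200 and 600 bp, lay 1880 and 11080 bp from it on the 5′ side, and Rnf41 or a tRNA gene was nearer to each.

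Rmrp, the RNA of the endonuclease RNase MRP that cuts precursor ribosomal RNA, had the only 2 peaks of chromosome 4 in the list. Each was 1 bin of 210 bp. The first, at 43492681 to 43492890, overlapped 106 bp of the RNA gene, which runs from 43492785 to 43493059. The second, at 43493101 to 43493310, began 42 bp past the RNA's other end, was classed as upstream, and lay 30 bp from Ccdc107. The rest of the RNA, from the end of the first peak to the RNA's own end, lay under no peak.

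Snord47, a C/D box snoRNA, is made from an intron of Gas5, a host of several snoRNAs. Its peak of 820 bp at chromosome 1, 161038161 to 161038980, began 5 bp past the end of Snord47, less than the bin of 205 bp. It covered the last 379 bp of Gas5 (9.62% of the gene), ran 441 bp past its end, and lay over the whole of LOC115487640, another annotated snoRNA of Gas5. That was 1 of 8 snoRNAs inside Gas5. No peak in the list names Gas5. Zbtb37, below Gas5, had 11.

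Rnu3a is the U3 RNA, typed as snRNA by the authors although U3 acts in the processing of ribosomal RNA. Its 1 peak, of 600 bp, was classed as intergenic and lay 1322 bp from the RNA on chromosome 10. Gtf3c6 and Amd1 on its sides had 1 peak in the 3′ UTR and 2 in introns.

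The median width of the small RNA peaks was near that of the other peaks on the X chromosome and below it on the autosomes. Over all chromosomes it was 1380 bp (200 to 11270), against 1400 bp for all other peaks (200 to 60260), a ratio of 0.986. The ratio was 0.657 over the 44 peaks that do not name Mir509, which include all 22 autosomal ones. On the X chromosome the median was 1610 bp in 56 small RNA peaks, 1610 bp in 470 other peaks outside genes and 1840 bp in all 3348 others. Of the 56, 34 name Mir509 and had a median of 1495 bp. The value for the 56 thus rests mostly on that stretch, and no separate median is given for the other X-linked small RNA peaks. On the autosomes it was 600 bp in 22 small RNA peaks, 1230 bp in 720 other peaks outside genes and 1230 bp in all 12885 others. Single-bin peaks were 9 of the 22 autosomal ones (40.9%) and 15.4% of the other autosomal peaks. The 9 came from Mir298 with 4, Rmrp with 2, and Mir8105, Mir99a and Mirlet7c-1 with 1 each. No X-linked small RNA peak was a single bin. With the widest peak of each gene, the median was 1305 bp in the 32 small RNA genes and 2665 bp in the 3226 others, which have more peaks to choose from.

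**Figure D4:**
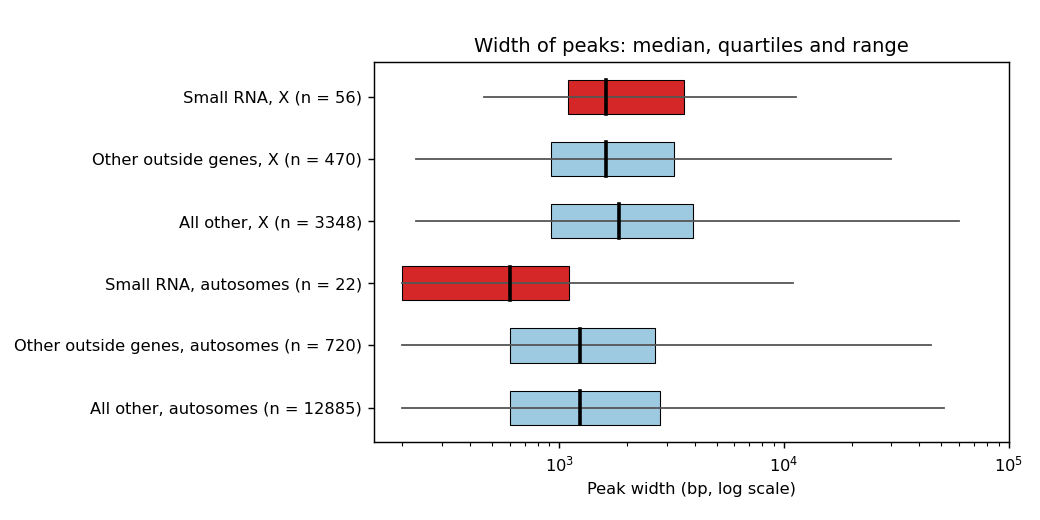
Peak width in bp on a log axis: box from the lower to the upper quartile, line in the box at the median, thin line from the lowest to the highest, for small RNA peaks (red) and other peaks (blue). Medians are alike on the X chromosome outside genes, at 1610 bp, whereas on autosomes they are 600 bp in small RNA peaks and 1230 bp in the others. Of the 56 small RNA peaks on the X chromosome, 34 name Mir509.

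Many small RNAs lay under peaks that name another gene. The reference table holds 2372 genes of the 4 kinds on chromosomes with peaks, of which 32 were named (1.35%), against 9.64% of all 33371 genes and 18.8% of 14867 protein-coding genes. Any peak overlapped 118 of the 2372 (4.97%, 4.17% to 5.92%), against 19% of protein-coding genes and 10.7% of all genes. Length was not matched in these shares, and a small RNA gene is a smaller target than a coding gene. Peaks covered 5.36% of the total extent of protein-coding genes. By kind, 56 of 912 miRNA genes (6.14%, 4.76% to 7.89%), 36 of 697 snRNA genes (5.16%, 3.75% to 7.07%) and 25 of 762 snoRNA genes (3.28%, 2.23% to 4.80%) lay under a peak. Of the 118, 105 were not named. They lay under 97 peaks that name 89 other genes, and 86 of the 105 were in peaks classed as intron.

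Known host genes of miRNAs were among them. Mirlet7f-2 and Mir98 lay together under a peak of 13340 bp in Huwe1, a ubiquitin ligase gene with 24 peaks over 72.2% of its length. Mir26a-2 lay 129 bp inside a peak of 3800 bp in Ctdsp2 that was classed as 3′ UTR, together with Mir546. Mir128-1 lay in R3hdm1 under 15785 bp, and Mir214 in Dnm3os under 3280 bp. Mir133a-1 and Mir1a-2, known from muscle, lay under 1 peak of 33400 bp in Mib1 on chromosome 18. Peaks this wide also cover much of the host, and hairpin and host cannot be told apart in them.

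Among snoRNAs, Nop58, which encodes a core protein of C/D box snoRNA particles, carried Snord70 under a peak of 1025 bp and Snord11 under a peak of 1845 bp. Rpl5 carried Gm22270 under 600 bp and Gm26387 under 2200 bp. Snord59a lay under a peak of 1000 bp in Atp5b, Gm22200 and Gm26109 under 3200 bp in Hspa9, and Snora74a under 1600 bp in Snhg4, its host.

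Peaks of 1000 bp or less, a limit chosen after the data were seen, lay over 18 small RNAs: 9 miRNAs, 5 snRNAs, 3 snoRNAs and Rmrp. The U1 gene Rnu1a1 lay whole inside the only peak of Tex14, which was 410 bp wide and started 1 bp before the RNA. The snRNA genes Gm25235 and Gm23523 lay under peaks of 205 and 615 bp in Atf6, a stress response gene with 36 peaks, and Gm26411 under 600 bp in Fbxw8. Gm25235 was covered to 85.0% and Gm26411 to 87.9%. Copies of snRNA genes are numerous and alike, so reads may have come from others.

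Within hosts that had a peak, miRNAs and snoRNAs lay under one about as often as the host's whole length did, and snRNAs more often. The middle base was under a peak in 100 of 392 small RNAs (25.5%, 21.4% to 30.0%). Peaks covered 21.8% of the host, a mean taken over small RNAs and not over hosts. For 181 miRNAs these were 23.8% (18.1% to 30.5%) and 22.9%, and for 105 snoRNAs 21.9% (15.1% to 30.7%) and 19.5%. For 106 snRNAs they were 32.1% (24.0% to 41.5%) and 22.2%, a mean that lies below the interval. Small RNAs of 1 host share its peaks, so the intervals are too narrow.

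**Figure D5:**
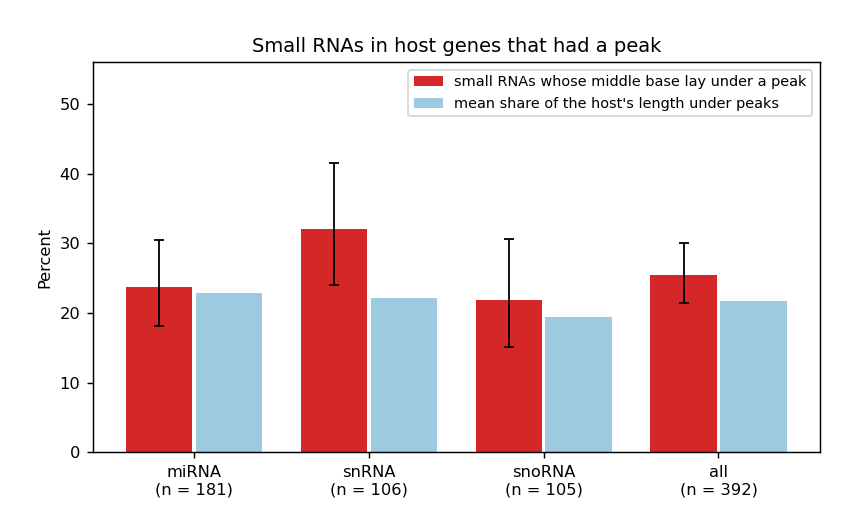
Percent of small RNAs in host genes with a peak whose middle base lay under one (red, with Wilson 95% intervals), beside the mean percent of the host's length under peaks (blue), by kind of small RNA. Red and blue differ most for snRNAs, at 32.1% and 22.2%. The mean is taken over small RNAs and not over hosts.

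Genes that make and carry small RNAs were read from lists that were chosen with earlier results of these data known. Their shares stand beside 18.8% of all protein-coding genes on these chromosomes. Genes of miRNA processing had a peak in 2 of 15 (13.3%, 3.74% to 37.9%): Dicer1, which cuts the hairpin, with 8 peaks, and the helicase gene Ddx17 with 3. Genes of snoRNA particles had one in 2 of 9 (22.2%, 6.32% to 54.7%): Nop58 with 6 and Dkc1, the pseudouridine synthase, with 2. None of 7 genes for RNase P and RNase MRP proteins had one, which allows up to 35.4%. Genes of snRNA transcription and maturation had one in 7 of 24 (29.2%, 14.9% to 49.2%). Of these Ints7, of the Integrator complex that trims snRNA ends, had 26 peaks over 48.0% of its length, Gemin8 had 10, Ints1 had 6 and Sart3, a recycling factor of U6 particles, had 5. Gemin2 and Mepce had 2 each. Hosts of snoRNAs and miRNAs had one in 6 of 24 (25%, 12.0% to 44.9%): Dnm3 with 33, Huwe1 with 24, Clcn5 with 19, Ftx with 8, Meg3 with 2 and Snhg4 with 1. All 5 intervals include 18.8%. That share is of protein-coding genes, whereas the host list also holds noncoding genes such as Meg3 and Snhg4. Over all 33371 genes of every kind the share was 9.64%, below the interval for hosts. Neither share is matched to that list.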

How the data were processed

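Per the labels, RNA of mouse testicular germ cells was immunoprecipitated with anti-BUD31 (1 library) and set against input RNA (1 library). The submitters' processing notes name TopHat2 2.0.13 and the build mm10. The deposited file is the authors' annotated peak list; how peaks were called, at what threshold, whether against the input, and with which annotation is not given in the sources used here. Its only measurements are peak starts and ends. Sample groups came from the titles.

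Members were taken by the authors' gene type. All 32 gene numbers matched a RefSeq gene table of GRCm38.p6, the assembly of mm10, and miRNA strands and sequences came from its sequence table. Overlap meant at least 1 bp unless said otherwise. Hosts were coding or long noncoding genes that contain the small RNA. No test was possible. Every member was named, with its neighbours; in each list up to 6 genes with a peak were named, by number of peaks. Members and lists were chosen with earlier results of these data known. Interval functions were tested on simulated data. Python 3.11.15, pandas 2.3.3, numpy 2.4.6, scipy 1.17.1 and biopython 1.88 were used.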

Additional observations from a re-analysis of the deposited data

How the results depend on the processing

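Of the 24 recomputed values, 18 stayed within their counting interval, spread or 1.5 times. The 11 RNA genes reached by their own peak became 10 with 50% of the RNA under the peak and 13 within 200 bp or with any peak. The median width of small RNA peaks was 0.986 times that of the others, 0.657 times without Mir509, 0.49 times with the widest peak per gene and 0.488 times on autosomes alone, where 22 peaks remain; the cause was not tested. On the 8 chromosomes with the densest peaks (10% or more of coding genes named), the share of annotated small RNAs under a peak was 8.58% instead of 4.97%, and the lists of snoRNA particles, snRNA maturation and hosts stood at 66.7% of 3, 58.3% of 12 and 50% of 12, beside 35.7% of all coding genes there. Values without Mir509, on the X chromosome or on autosomes, and with any peak, were added after the data were seen. No paired analysis was possible because each group is 1 library in 1 shared peak list. Depth is unknown, so a gene without a peak cannot be called unbound.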
